A study of Mus musculus with 32 samples.

Results

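The genes described here are the 9 expressed mouse Toll-like receptor genes, Tlr1, Tlr2, Tlr3, Tlr4, Tlr6, Tlr7, Tlr8, Tlr9 and Tlr13, together with Cd14, the co-receptor of the LPS receptor. They were chosen by name and not by how they changed, though with earlier results of these data known. Transcripts were mapped to gene symbols and each gene was represented by its transcript of highest mean count, which gave 10 genes of 25067 in the table. All 10 had a mean RPKM (counts per kilobase of transcript, scaled to library size) over 1 in at least 1 group and were among the 11186 genes tested. RNA-seq was performed on bone marrow-derived macrophages (BMDMs), macrophages differentiated from bone marrow for 7 days in L929-conditioned medium, from male C57Bl6/J mice aged 6-12 weeks. In Nur77-KO mice, Nr4a1, the gene of the nuclear receptor Nur77, had been removed in the whole body by breeding mice with a Cre recombinase driven by the CMV promoter to mice with a loxP-flanked Nr4a1 gene, and the BMDM-WT cells came from wild-type littermates. The labels give the BMDM-Nur77-KO genotype as cre, and per the methods the mice used were later bred to carry no Cre. Both genotypes were left untreated (0 h) or received LPS at 100 ng/ml for 1, 5 or 18 h, with 4 libraries in each of the 8 groups. The cells had been seeded in plates in 4 replicates, and the sources used here do not tie a library to an animal. P-values therefore measure only the spread between these libraries, which may be technical. In bulk RNA, fewer cells of a type and less RNA per cell cannot be told apart.

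Toll-like receptors (TLRs) recognise conserved molecules of microbes through a leucine-rich ectodomain and signal through a cytoplasmic TIR domain to the adaptors MyD88 and TRIF. TLR4 detects LPS on the cell surface, where CD14 hands LPS to TLR4 and its partner MD-2, and TLR2 detects bacterial lipopeptides as a heterodimer with TLR1 or TLR6. TLR3, TLR7, TLR8, TLR9 and TLR13 detect nucleic acids in endosomes, to which the chaperone UNC93B1 carries them. Macrophages use both groups to sense bacteria and viruses.

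Between 8742362 and 15780926 counts per library were assigned to genes, with a median of 11847140. Nr4a1 itself, the check of the labels, was 19.6 ± 4.24 CPM (n = 4, SD) in BMDM-WT and 5.20 ± 1.16 CPM (n = 4, SD) in BMDM-Nur77-KO at 0 h, and 437 ± 60.0 CPM (n = 4, SD) and 191 ± 40.7 CPM (n = 4, SD) at 1 h. CPM are counts scaled to the TMM-normalised library size. At 5 and 18 h no library held more than 9 counts of Nr4a1. The genotype difference was then -1.55 (SE 0.55, adjusted p = 0.042) at 5 h and -0.46 (SE 0.69, adjusted p = 0.69) at 18 h, by edgeR's quasi-likelihood test. The genotypes overlapped at 18 h, so Nr4a1 does not check the labels of that time. On which exons of Nr4a1 the counted reads lie is not given. The summed level of 7 macrophage markers (Adgre1, Itgam, Csf1r, Cd68, Lyz2, Mertk and Fcgr1) was 10890 to 18230 CPM over the 32 libraries. It was 10890 to 12350 CPM in BMDM-Nur77-KO and 13870 to 14310 CPM in BMDM-WT at 18 h, ranges that did not overlap, and 12640 to 15040 and 15050 to 16610 CPM at 5 h. At 0 and 1 h the genotypes overlapped. Lyz2 weighed most in this sum, with a median of 8697 CPM against 229 to 1492 CPM for the other markers. Markers of T cells, fibroblasts and mast cells summed to at most 0.8575, 1.885 and 0.1523 CPM. Those of neutrophils (Ly6g, Mpo, Elane, Ltf, Camp and Ngp) summed to 4.366 to 24.07 CPM. At 1 h their sum was 19.63 to 24.07 CPM in BMDM-Nur77-KO and 10.88 to 14.73 CPM in BMDM-WT. Ngp (median 8.815 CPM) and Ltf (3.249 CPM) carried that sum, whereas Ly6g was at 0 in 27 libraries and Elane in 23. The part of these genotype differences of marker sums in the members' values was not tested. Replicate 1 of BMDM-Nur77-KO at 5 h stood apart, with a mean correlation of 0.964 to the other libraries of its group, against 0.979 to 0.994 for every other library. It also had the steepest trend on transcript GC content, with log2 CPM relative to its group mean falling by 0.55 for every 10 percentage points of GC, whereas replicate 4 of the same group had the opposite trend of 0.297. Genotype differences at 5 h, and part of the other results at 5 h, are therefore given with and without replicate 1. Values after removal of the GC trend, an alternative chosen after seeing the data, are given beside the calls of members and of named list genes that they change. Replicate 4 of BMDM-Nur77-KO at 18 h had the next steepest trend, of -0.389, against 0.092 to 0.196 in the rest of its group. Its mean correlation to its group was 0.979, where the rest had 0.9875 to 0.9892. Leaving it out changed the calls of Tlr7 at 18 h against 0 h and of Tlr3 at 18 h against 5 h, both within BMDM-Nur77-KO.

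All coordinates are of mm10 (GRCm38). Tlr1 (NM_001276445, chr5:64924680-64933600) and Tlr6 (NM_011604, chr5:64953092-64970942) were neighbours, 19491 bases apart with 0 other RefSeq genes between them. Their kept transcripts shared 259 windows of 100 identical bases, 8.85% of the windows of Tlr1 and 7.24% of those of Tlr6, and the longest identical run was 229 bases. Read pairs wholly inside identical sequence cannot be assigned to 1 of the 2 genes by sequence. How many were dropped with the alignments of low mapping quality is not given, so the values of both carry that uncertainty. The other pairs of members shared 0 such windows. Tlr6 also overlapped the genes Fam114a1 and Mir574, and the sources used here do not state whether counting used the strand. Tlr7 (NM_001290755, chrX:167303380-167330574) and Tlr8 (NM_133212, chrX:167241123-167264329) were neighbours too, 39050 bases apart. The remaining members were Tlr2 (NM_011905, chr3:83836272-83841824), Tlr3 (NM_126166, chr8:45395665-45411075), Tlr4 (NM_021297, chr4:66827551-66846581), Tlr9 (NM_031178, chr9:106222598-106226876), Tlr13 (NM_205820, chrX:106143275-106160493) and Cd14 (NM_009841).

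The RefSeq promoter table (GRCm38.p6, 250 bases before to 50 after each start) matched 7 of the 10 members with 9 windows, and had no entry for Tlr4, Tlr7 and Cd14. Each window was searched on both strands for the NBRE, the monomer site of Nur77 (AAAGGTCA), for AP-1 (TGANTCA), the ISRE consensus bound by interferon-activated factors, a PU.1/ETS site (GAGGAAGT) and the NF-kB consensus. The NBRE was found in 0 of the 9 windows and in 1.51% of 32851 promoters of the genome. The other motifs occurred in 7.81% (AP-1), 3.44% (ISRE), 3.2% (PU.1/ETS) and 4.51% (NF-kB) of all promoters. Matches are shown in capitals for the 5 windows that held any, because these genes followed different courses after LPS. Tlr2 (chr3:83841559-83841858, minus strand) held an overlapping pair of NF-kB matches from position -173 to -163 and another from -8 to 1, counted from 0 at the start. Tlr3 (chr8:45410331-45410630, minus strand) held an NF-kB match from -211 to -202, and Tlr6 (chr5:64959117-64959416, minus strand) an overlapping pair of ISRE matches from -116 to -101. Tlr9 (chr9:106222348-106222647, plus strand) held an AP-1 match from -58 to -52 and a PU.1/ETS match from 10 to 17, and Tlr1 (chr5:64933509-64933808, minus strand) a PU.1/ETS match from -23 to -16. A second window each of Tlr1 and Tlr6 and the windows of Tlr8 and Tlr13 held none of these motifs. Starts were those of the promoter table, and the windows of Tlr3 and Tlr6 lay wholly within the gene spans given above. The upstream ends of these spans were thus not searched. A match describes the letters and was not tested as a site.
Tlr2: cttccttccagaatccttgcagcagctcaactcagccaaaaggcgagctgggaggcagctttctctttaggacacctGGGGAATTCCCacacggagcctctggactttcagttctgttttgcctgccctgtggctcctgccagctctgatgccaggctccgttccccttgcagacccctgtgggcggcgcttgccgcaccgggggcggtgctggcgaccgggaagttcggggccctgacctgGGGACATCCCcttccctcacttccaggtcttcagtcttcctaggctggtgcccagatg
Tlr3: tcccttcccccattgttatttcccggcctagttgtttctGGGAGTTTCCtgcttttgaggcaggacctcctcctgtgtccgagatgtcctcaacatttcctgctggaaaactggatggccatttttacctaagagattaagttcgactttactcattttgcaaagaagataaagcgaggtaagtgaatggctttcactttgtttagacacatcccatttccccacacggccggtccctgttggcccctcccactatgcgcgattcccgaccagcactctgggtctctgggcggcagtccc
Tlr6: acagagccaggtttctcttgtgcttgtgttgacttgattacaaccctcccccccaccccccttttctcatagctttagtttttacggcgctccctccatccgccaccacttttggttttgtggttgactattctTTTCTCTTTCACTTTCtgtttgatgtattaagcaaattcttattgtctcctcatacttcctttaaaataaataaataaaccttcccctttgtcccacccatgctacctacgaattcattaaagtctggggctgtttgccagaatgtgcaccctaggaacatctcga
Tlr9: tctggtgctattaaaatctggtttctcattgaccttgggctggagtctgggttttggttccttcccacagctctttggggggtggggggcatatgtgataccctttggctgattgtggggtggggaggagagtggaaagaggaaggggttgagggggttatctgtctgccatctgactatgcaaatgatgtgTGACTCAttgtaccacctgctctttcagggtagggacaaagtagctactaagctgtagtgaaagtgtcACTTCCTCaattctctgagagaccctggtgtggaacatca
Tlr1: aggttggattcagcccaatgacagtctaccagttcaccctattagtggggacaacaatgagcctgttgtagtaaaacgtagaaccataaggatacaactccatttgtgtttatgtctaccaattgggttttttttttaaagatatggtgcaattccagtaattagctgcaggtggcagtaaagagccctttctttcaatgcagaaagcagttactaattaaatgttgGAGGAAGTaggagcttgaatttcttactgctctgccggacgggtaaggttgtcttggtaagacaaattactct

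Before LPS, the levels per length spanned from Cd14 at 284.9 RPKM to Tlr3 at 3.48 RPKM in BMDM-WT. Tlr13, the receptor of bacterial ribosomal RNA, had the highest RPKM of the TLR genes (113.5), followed by Tlr8 (81.1), Tlr7 (54.8), Tlr4 (39.0), Tlr1 (31.5), Tlr2 (14.9), Tlr9 (8.58), Tlr6 (5.16) and Tlr3. No neighbours in this order had overlapping ranges over the 4 libraries. In BMDM-Nur77-KO at 0 h the order was the same, but the ranges of Tlr8 (85.6 RPKM), Tlr7 (64.2 RPKM) and Tlr4 (46.7 RPKM) overlapped from one to the next, as did those of Tlr9 (6.15 RPKM) and Tlr6 (5.75 RPKM).

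**Figure D1:**
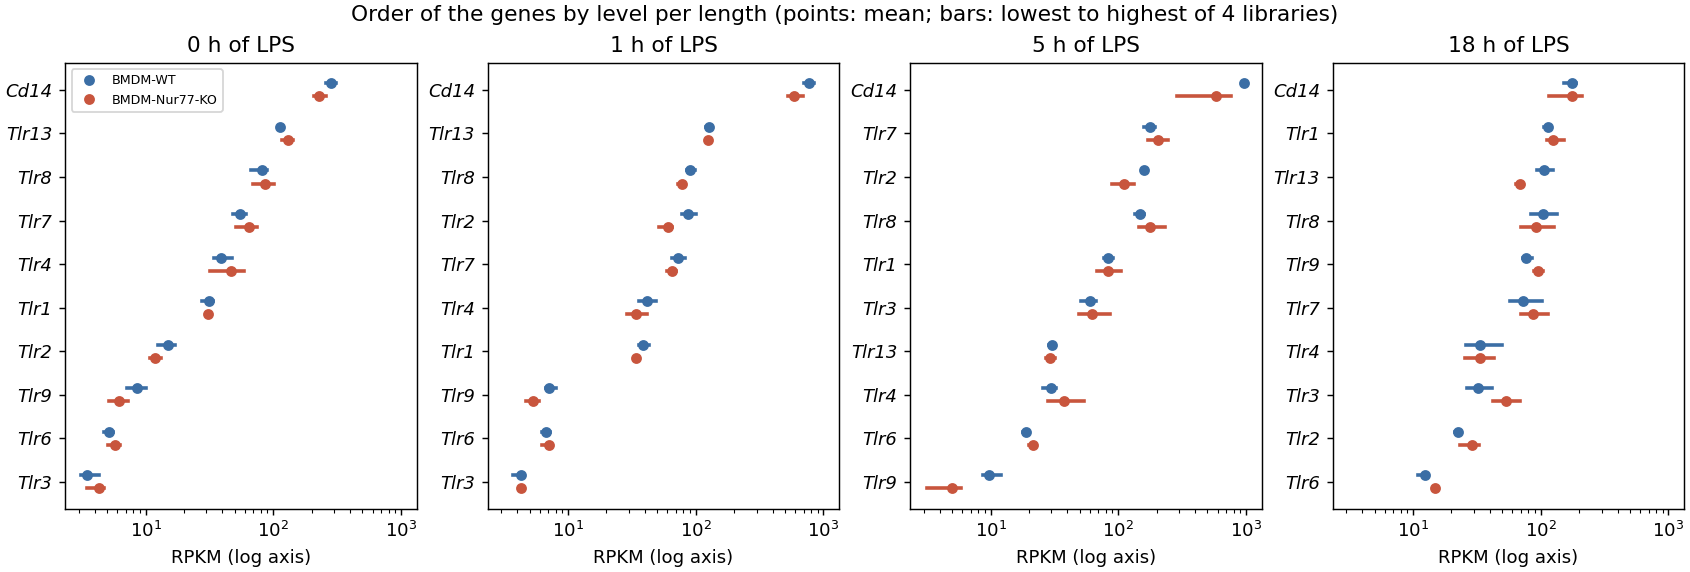
Mean RPKM of each gene in BMDM-WT (blue) and BMDM-Nur77-KO (red) on a log axis at each time of LPS, with bars from the lowest to the highest of 4 libraries and genes ordered by the BMDM-WT mean. Cd14 had the highest mean at each time, though its range overlapped that of Tlr1 in BMDM-Nur77-KO at 18 h. Tlr13 fell from the second place at 0 h (113.5 RPKM) to 30.1 RPKM at 5 h in BMDM-WT.

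LPS reordered the receptors. At 1 h in BMDM-WT, Tlr2 reached 87.8 RPKM and its range overlapped those of Tlr8 (90.9 RPKM) and Tlr7 (72.9 RPKM). At 5 h, Tlr7 (176.4 RPKM), Tlr2 (160 RPKM) and Tlr8 (148.8 RPKM) formed an overlapping run below Cd14 (965 RPKM), Tlr3 had come up to 60.5 RPKM and Tlr9 was the lowest at 9.74 RPKM. At 18 h, Tlr1 (113.6 RPKM), Tlr13 (105.9 RPKM), Tlr8 (103.6 RPKM), Tlr9 (76.6 RPKM) and Tlr7 (72.9 RPKM) overlapped from each to the next. In BMDM-Nur77-KO at 18 h, the range of Cd14 (115.7 to 210.1 RPKM) overlapped that of Tlr1 (111.9 to 153.2 RPKM). Below these, a run of overlapping ranges went from Tlr9 (94.6 RPKM) through Tlr8, Tlr7, Tlr13, Tlr3 and Tlr4 to Tlr2 (29.1 RPKM).

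**Figure D2:**
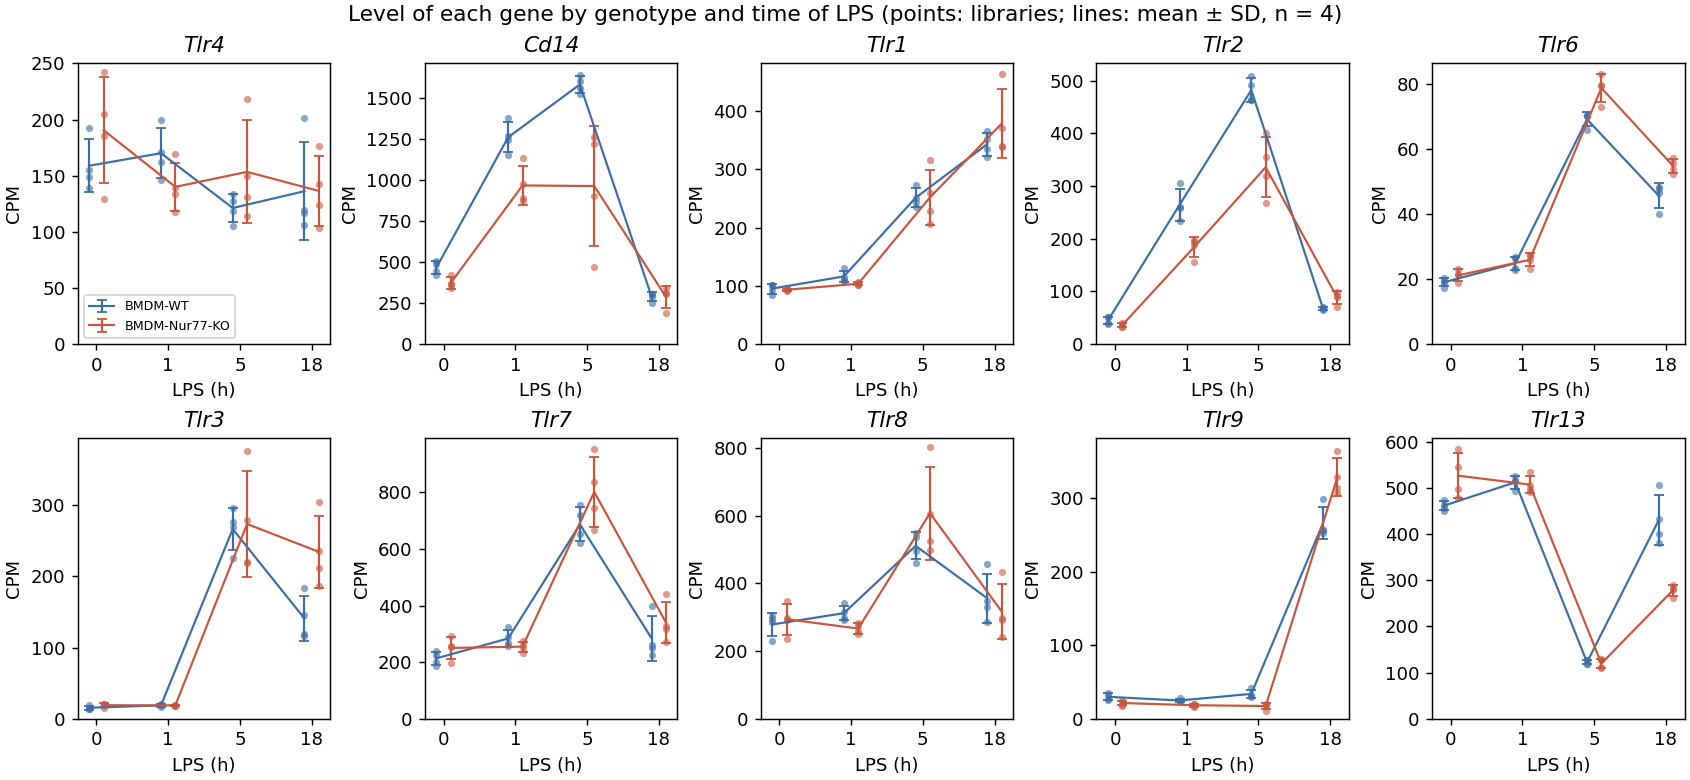
CPM of each gene (linear axis from 0) at 0, 1, 5 and 18 h of LPS, drawn at even spacing, with points for single libraries and lines for the mean ± SD of 4 libraries of BMDM-WT (blue) and BMDM-Nur77-KO (red). Tlr2 and Cd14 peaked at 1 to 5 h, Tlr9 rose at 18 h, and Tlr13 dipped at 5 h.

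The response to LPS was tested against 0 h within each genotype, with edgeR's quasi-likelihood test and Benjamini-Hochberg adjustment over all genes tested. In BMDM-WT at 1 h, 4 of the 10 members rose and 0 fell, where 10.4% and 9.81% of all genes did. Tlr2, Cd14, Tlr6 and Tlr1, the cell-surface receptors other than Tlr4, were these 4. At 5 h, 7 members rose and 1 fell (all genes, 30.8% and 39.1%), with Tlr3, Tlr7 and Tlr8 joining the higher ones and Tlr13 falling. At 18 h, 7 rose and 1 fell (all genes, 32.9% and 33.6%), and Tlr9 was now among the higher ones while Cd14 was below its level before LPS. The median log2 fold change of the 10 members was 0.29 at 1 h, 1.54 at 5 h and 0.5 at 18 h, against -0.02, -0.13 and 0 over all genes. In BMDM-Nur77-KO, 3 members rose and 0 fell at 1 h (all genes, 7.12% and 5.08%), 7 rose and 1 fell at 5 h (33.1% and 38.2%; without replicate 1 at 5 h the same 7 rose, and Tlr4 fell besides Tlr13), and 6 rose and 2 fell at 18 h (34.7% and 34.6%). The medians there were 0, 1.4 and 0.86, against 0.01, -0.09 and 0 over all genes. For the counts of 0, the same test without adjustment gave 0 members lower at p under 0.05 in BMDM-WT and 1 in BMDM-Nur77-KO, and DESeq2 gave 0 in both. The 0 h libraries of a genotype enter all 3 of its comparisons. From 5 to 18 h, 3 members rose and 6 fell in BMDM-WT (all genes, 35.6% and 33.9%), with Tlr9, Tlr13 and Tlr1 rising by 2.97, 1.82 and 0.45 on the log2 scale. In BMDM-Nur77-KO the same comparison gave 3 and 5 (35.2% and 34.1%), with increases of 4.24, 1.22 and 0.59 (4.08, 1.26 and 0.71 without replicate 1 at 5 h).

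**Figure D3:**
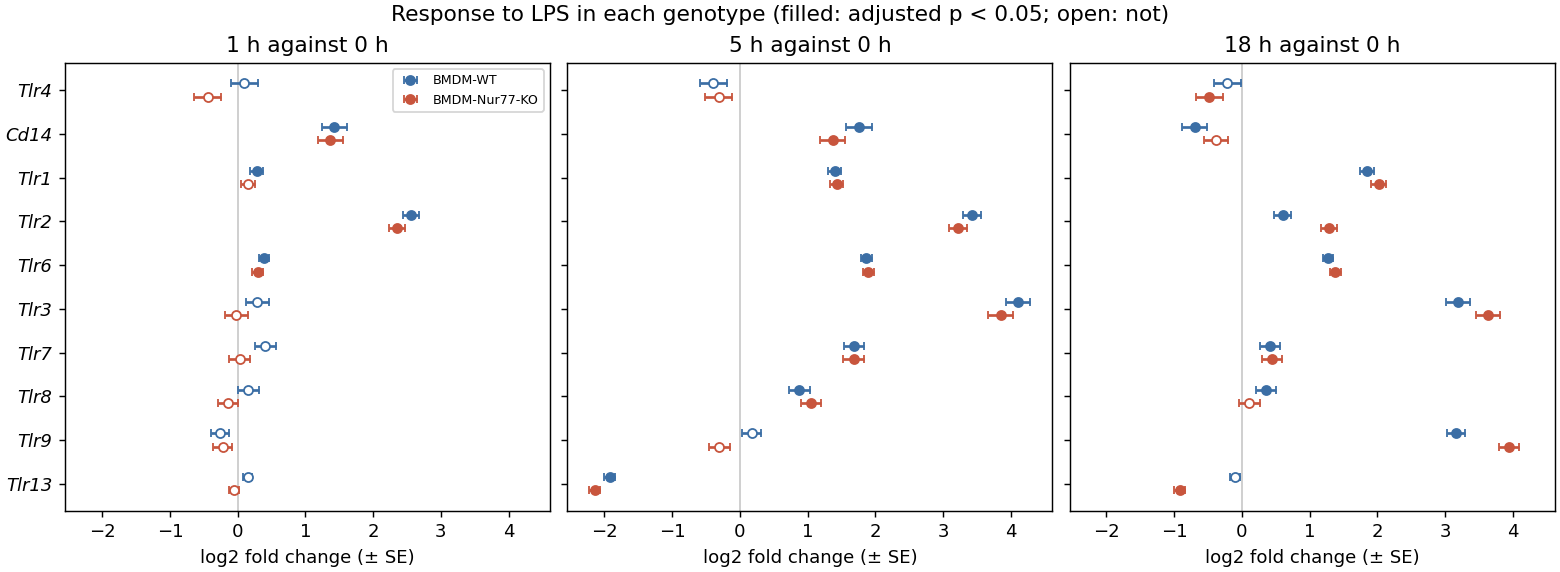
Log2 fold change (± SE) of each gene at 1, 5 and 18 h of LPS against 0 h in BMDM-WT (blue) and BMDM-Nur77-KO (red), with filled points at an adjusted p under 0.05. Tlr3 was the member with the largest value at 5 h (4.11 in BMDM-WT), Tlr13 was below 0 at 5 h in both genotypes, and the genotypes stood farthest apart for Tlr2, Tlr9 and Tlr13 at 18 h.

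BMDM-Nur77-KO was compared with BMDM-WT at each time to ask how receptor levels differed between the genotypes. At 0 h, 0 members were higher and 1 was lower (all genes, 5.88% and 6.65%), namely Tlr9. At 1 h, 0 were higher and 1 was lower (3.44% and 3.03%), namely Tlr2. At 5 h, 0 were higher and 3 were lower (13.2% and 10.6%), namely Tlr2, Tlr9 and Cd14. At 18 h, 3 were higher (Tlr2, Tlr3 and Tlr6) and 1 was lower (Tlr13), where 12.3% and 9.44% of all genes were. Without replicate 1 of BMDM-Nur77-KO, the members called lower at 5 h were again Tlr2, Tlr9 and Cd14, and Tlr6 was called higher. The median over the members was 0.12, -0.2, 0.02 and 0.2 at the 4 times, against -0.03, 0, 0.02 and 0 over all genes. Of the counts of 0 higher members, the unadjusted test at p under 0.05 gave 1, 0 and 1 at 0, 1 and 5 h, and so did DESeq2 after adjustment. All 4 BMDM-Nur77-KO libraries lay above all 4 BMDM-WT libraries for 1 member at 0 h and below for 0 (all genes, 9.45% and 13.4%), for 0 and 5 at 1 h (10.2% and 9.32%), for 1 and 3 at 5 h (8.98% and 9.74%) and for 3 and 1 at 18 h (11.1% and 9.98%).

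**Figure D4:**
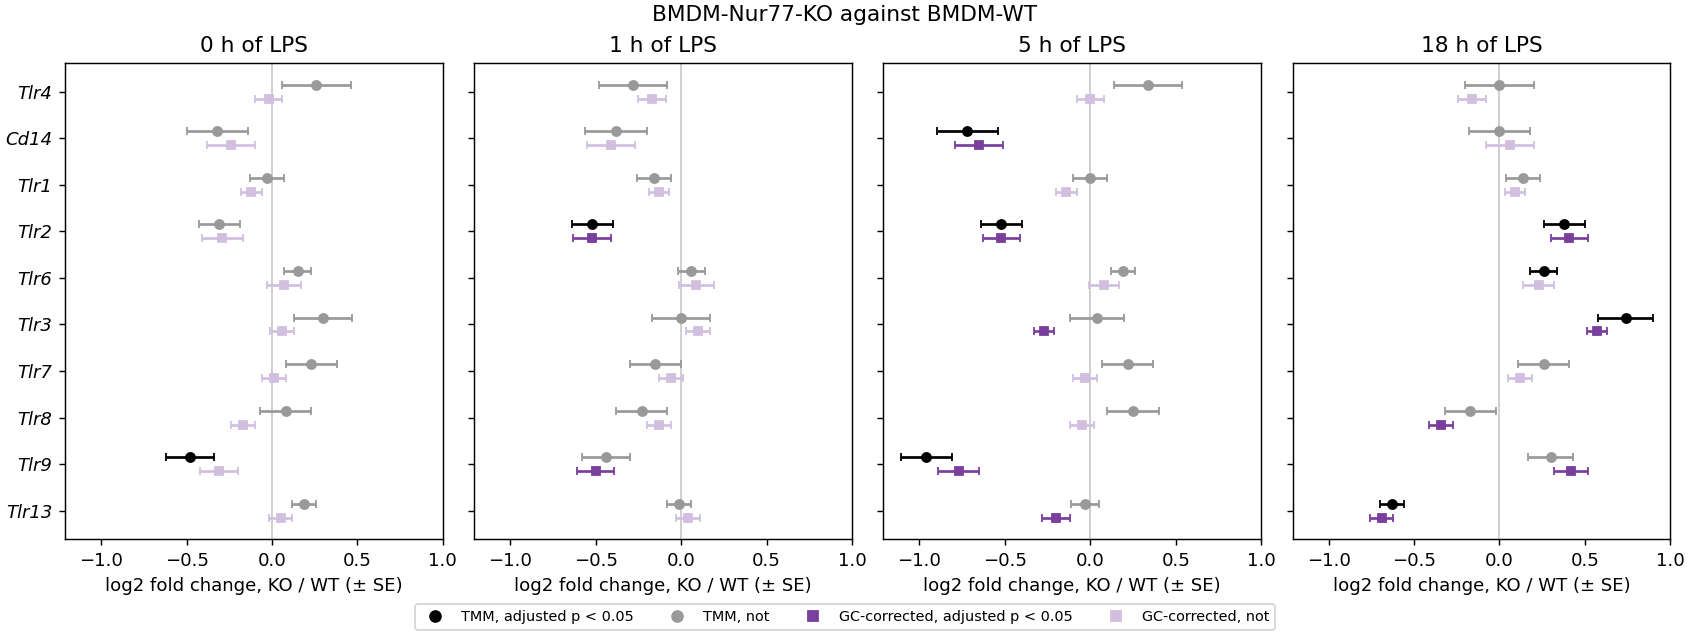
Log2 fold change (± SE) of each gene between BMDM-Nur77-KO and BMDM-WT, 1 panel a time, with TMM scaling (circles) and after removal of the trend on GC content in each library (purple squares), and dark symbols at an adjusted p under 0.05. Tlr2 and Tlr9 lay below 0 at 5 h and Tlr13 at 18 h on both scales, whereas Tlr3 at 5 h moved from 0.04 to -0.27.

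Tlr4, which encodes the signalling receptor for LPS, had ranges over libraries that overlapped between the genotypes at each time. In BMDM-WT its 4 libraries were 155, 193, 149 and 139.5 CPM at 0 h, 128, 105, 119 and 134 CPM at 5 h and 119.9, 117, 201 and 107 CPM at 18 h. The BMDM-Nur77-KO libraries were 243, 185, 205 and 129.7 CPM at 0 h, 219, 150.0, 131 and 114 CPM at 5 h and 124, 103, 142 and 177 CPM at 18 h. At 1 h the libraries were 146.5, 171.5, 162 and 199.9 CPM in BMDM-WT and 118, 134, 169 and 139 CPM in BMDM-Nur77-KO. Replicate 3 of BMDM-WT at 18 h stood alone in its group. No genotype difference passed the test, with log2 fold changes of 0.26, -0.28, 0.34 and 0.00 (SE 0.20 each, adjusted p = 0.41, 0.55, 0.21 and 1), and 0.12 at 5 h without replicate 1 of BMDM-Nur77-KO (SE 0.20, adjusted p = 0.75). In BMDM-WT its change after LPS did not pass either, with values of 0.10, -0.39 and -0.22 at 1, 5 and 18 h (adjusted p at the last 2 of 0.084 and 0.33). The decrease at 18 h in BMDM-Nur77-KO did (log2 fold change -0.48, SE 0.20, adjusted p = 0.034), but it was lost in 4 of the 8 fits without 1 of its libraries (range -0.63 to -0.34, adjusted p up to 0.15). At 5 h the change in BMDM-Nur77-KO was -0.31 (adjusted p = 0.16), and it passed without replicate 1 (-0.53, SE 0.20, adjusted p = 0.017). Removal of the GC trend brought the SE from 0.20 to 0.08, and Tlr4 then fell after LPS in BMDM-WT at 5 h (log2 fold change -0.58, adjusted p = 2.3e-07) and 18 h (-0.33, adjusted p = 6.6e-04), and in BMDM-Nur77-KO at 1, 5 and 18 h (-0.26, -0.56 and -0.47, adjusted p = 0.021, 3.7e-07 and 5.1e-06). From 5 to 18 h in BMDM-WT it then rose (0.25, adjusted p = 0.0085), against 0.17 (adjusted p = 0.47) with TMM. The genotypes did not pass the test on that scale either, with values of 0.00 at 5 h and an SE of 0.08.

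Cd14, the membrane protein that binds LPS for TLR4, rose early and strongly. In BMDM-WT it was 422, 449, 491 and 509 CPM at 0 h, 1379, 1245, 1153 and 1272 CPM at 1 h and 1563, 1604, 1642 and 1528 CPM at 5 h. All libraries at 1 and 5 h thus lay above all libraries at 0 h, with log2 fold changes of 1.43 (SE 0.18, adjusted p = 3.5e-07) and 1.76 (SE 0.19, adjusted p = 9.5e-10). At 18 h it was 289 ± 26.5 CPM (n = 4, SD), below the level before LPS (log2 fold change -0.70, SE 0.18, adjusted p = 0.0013). In BMDM-Nur77-KO it was 365.5, 340, 364 and 425 CPM at 0 h, a range that overlapped that of BMDM-WT. It was 1134, 889.8, 872 and 978 CPM at 1 h and 474, 902, 1220.0 and 1263 CPM at 5 h. The values at 1 and 5 h were below those of BMDM-WT in every library, most of all in replicate 1 at 5 h. The difference at 5 h passed the test (log2 fold change -0.72, SE 0.18, adjusted p = 0.0058). Without replicate 1 it was -0.49 (SE 0.14, adjusted p = 0.013), and in a fit to the 8 libraries of 5 h alone it was -0.71 (SE 0.26, adjusted p = 0.15). At 0 h the difference was -0.32 (SE 0.18, adjusted p = 0.25, and 0.019 in the 0 h libraries alone). At 1 h it was -0.38 (SE 0.18, adjusted p = 0.27), and at 18 h, with 288 ± 67.8 CPM (n = 4, SD) in BMDM-Nur77-KO, it was -0.00 (SE 0.18, adjusted p = 0.99). The rise over 0 h in BMDM-Nur77-KO was 1.37 at 1 h and at 5 h. The interaction of genotype and LPS did not pass at 1 h (-0.06, SE 0.26, adjusted p = 0.93) or 5 h (-0.39, SE 0.26, adjusted p = 0.5). Without 1 library the latter ranged from -0.55 to -0.17. Relative to 0 h, Cd14 in BMDM-Nur77-KO was at -0.38 by 18 h (adjusted p = 0.068), which passed with the GC trend removed (-0.32, adjusted p = 0.039).

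Tlr2, the common partner of the lipopeptide receptors, had the largest response at 1 h of all members. In BMDM-WT it was 39.4, 37.8, 51.0 and 51.1 CPM at 0 h, 305, 259, 234 and 260.2 CPM at 1 h and 492, 464, 509.7 and 464 CPM at 5 h. No library at 1 or 5 h came near those at 0 h, which amounted to a 5.91-fold rise at 1 h (log2 fold change 2.56, SE 0.12, adjusted p = 6.9e-17) and a 10.8-fold rise at 5 h (3.43, SE 0.13, adjusted p = 1.4e-20). In BMDM-Nur77-KO it was 32.8, 32.9, 39.5 and 38.8 CPM at 0 h, 198, 156, 188 and 194 CPM at 1 h and 267, 319, 401 and 356 CPM at 5 h. Each BMDM-Nur77-KO library at 1 and 5 h lay below each BMDM-WT library of that time, while at 0 h the ranges overlapped. The genotype difference was -0.52 at both times (SE 0.12, adjusted p = 0.0037 at 1 h and 0.002 at 5 h), and at 5 h -0.43 without replicate 1 (SE 0.11, adjusted p = 0.01). In a fit to the 5 h libraries alone the adjusted p was 0.053. At 0 h it was -0.31 (SE 0.12, adjusted p = 0.092), and -0.39 without replicate 2 of BMDM-WT (adjusted p = 0.046).

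At 18 h the genotypes were in the reverse order for Tlr2. The 4 libraries were 68.0, 64.8, 71.1 and 66.7 CPM in BMDM-WT and 99.2, 91.5, 90.0 and 70.2 CPM in BMDM-Nur77-KO. Replicate 4 of BMDM-Nur77-KO lay within the BMDM-WT range, and the other 3 above it. The difference passed the test (log2 fold change 0.38, SE 0.12, adjusted p = 0.023), yet in only 3 of the 8 fits without 1 library, with an adjusted p of up to 0.083. From 5 to 18 h, Tlr2 fell by 2.83 in BMDM-WT and by 1.94 in BMDM-Nur77-KO on the log2 scale. The response at 18 h relative to 0 h was higher in BMDM-Nur77-KO (log2 fold change 0.69, SE 0.17, adjusted p = 0.007 for the interaction of genotype and LPS), and this difference passed in 16 of 16 fits without 1 library.

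Tlr1 and Tlr6, the partners that let TLR2 tell triacylated from diacylated lipopeptides, rose more slowly than Tlr2 and stayed high. Tlr1 in BMDM-WT was 95.4 ± 8.63 CPM (n = 4, SD) at 0 h, 251 ± 16.2 CPM (n = 4, SD) at 5 h and 344 ± 19.7 CPM (n = 4, SD) at 18 h, with log2 fold changes of 1.40 (SE 0.10, adjusted p = 3.2e-13) and 1.85 (SE 0.10, adjusted p = 5.6e-16). It went on rising after 5 h, when the other lipopeptide receptors fell. Its small increase at 1 h in BMDM-WT (0.28, SE 0.10, adjusted p = 0.048) passed in 1 of 8 fits without 1 library. In BMDM-Nur77-KO it was 0.15 at 1 h (adjusted p = 0.5) and passed with the GC trend removed (0.19, adjusted p = 0.039). At 18 h its libraries were 352, 322, 367 and 334 CPM in BMDM-WT and 372, 338, 341 and 464 CPM in BMDM-Nur77-KO, ranges that overlapped, and no genotype difference passed at any time (-0.03, -0.16, 0.00 and 0.14, SE 0.10, and -0.12 at 5 h without replicate 1 of BMDM-Nur77-KO).

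Tlr6 was lower than Tlr1 per length and peaked at 5 h. Its libraries at 5 h were 70.0, 65.9, 70.3 and 70.1 CPM in BMDM-WT and 73.0, 79.6, 83.1 and 79.2 CPM in BMDM-Nur77-KO. At 18 h they were 47.8, 46.3, 48.4 and 40.0 CPM and 55.7, 57.1, 53.7 and 52.4 CPM. At both times all BMDM-Nur77-KO libraries lay above all BMDM-WT libraries. The difference was 0.19 at 5 h (SE 0.07, adjusted p = 0.064) and 0.22 without replicate 1 of BMDM-Nur77-KO (SE 0.08, adjusted p = 0.05, just under the threshold). At 18 h it passed (log2 fold change 0.26, SE 0.08, adjusted p = 0.011), but not without replicate 4 of BMDM-WT (adjusted p = 0.074), in the 18 h libraries alone (0.087) or with the GC trend removed (0.061). Against 0 h, Tlr6 rose in BMDM-WT at 1, 5 and 18 h (0.39, 1.87 and 1.27, SE 0.08, adjusted p = 3.9e-04, 3.1e-19 and 5.5e-15). In BMDM-Nur77-KO it rose too, by 0.30, 1.90 and 1.38, and the rise at 1 h was lost without the untreated replicate 2 (adjusted p = 0.068).

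Tlr3, the receptor for double-stranded RNA that signals through TRIF, had the largest response of all members at 5 h. In BMDM-WT it was 14.7, 19.0, 13.8 and 13.9 CPM at 0 h, 276, 225, 269 and 296 CPM at 5 h and 119, 146, 183 and 116 CPM at 18 h. It was thus 17.3-fold higher at 5 h (log2 fold change 4.11, SE 0.18, adjusted p = 8.6e-19) and 9.14-fold at 18 h (3.19, SE 0.18, adjusted p = 3.0e-16), and at 1 h it had not passed the test in either genotype. In BMDM-Nur77-KO it was 20.6, 19.1, 20.9 and 15.4 CPM at 0 h, 377, 279, 218 and 221 CPM at 5 h and 212, 186, 236 and 304 CPM at 18 h. At 18 h each BMDM-Nur77-KO library was above each BMDM-WT library, and at 5 h the ranges overlapped, with replicate 1 of BMDM-Nur77-KO alone above the BMDM-WT range. The difference at 18 h was 1.67-fold (log2 fold change 0.74, SE 0.16, adjusted p = 7.6e-04), and without 1 library it ranged from 0.59 to 0.89 on the log2 scale and passed each time. From 5 to 18 h, Tlr3 fell by 0.92 in BMDM-WT, and the change in BMDM-Nur77-KO was -0.22 (adjusted p = 0.21). The latter was -0.03 without replicate 1 at 5 h. It passed without replicate 4 at 18 h (-0.37, adjusted p = 0.036). The difference between these 2 changes was not tested.

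At 5 h the genotype difference of Tlr3 depended on the scale. It was 0.04 (SE 0.16, adjusted p = 0.88) with TMM and -0.16 without replicate 1 (adjusted p = 0.54). With the GC trend removed it was -0.27 (SE 0.06, adjusted p = 9.7e-04), the 1 value of a member that passed the test with the opposite sign. At 18 h the GC-corrected difference was 0.57 (SE 0.06, adjusted p = 5.4e-09). Tlr3 is also a known marker of cross-presenting dendritic cells. The summed level of 5 markers of conventional dendritic cells (Flt3, Zbtb46, Xcr1, Clec9a and Cd209a) at 18 h was 5.145 to 7.166 CPM in BMDM-WT and 13.42 to 21.8 CPM in BMDM-Nur77-KO, and at 0 h 1.2 to 1.372 and 1.415 to 2.361 CPM. At 5 h the ranges overlapped, at 13.16 to 19.1 and 12.94 to 26.68 CPM. Xcr1 (up to 20.87 CPM) and Clec9a (up to 16.48 CPM) carried that sum, whereas Flt3 was at 0 in 18 of the 32 libraries and never above 0.2987 CPM, and Cd209a was at 0 in 16. The part of such cells in the level of Tlr3 was not tested.

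Tlr7 and Tlr8, which bind single-stranded RNA and RNA breakdown products, peaked at 5 h. Tlr7 in BMDM-WT was 226, 239.7, 202 and 187 CPM at 0 h and 654, 622, 719 and 755 CPM at 5 h, with no overlap (log2 fold change 1.69, SE 0.15, adjusted p = 3.8e-11). Tlr8 was 296, 305, 284 and 228 CPM at 0 h and 497, 460.3, 537 and 548 CPM at 5 h, also with no overlap (log2 fold change 0.88, SE 0.15, adjusted p = 9.9e-06). In BMDM-Nur77-KO the increases at 5 h were 1.68 for Tlr7 and 1.05 for Tlr8, and 1.59 and 0.88 without replicate 1. At 1 h in BMDM-WT, Tlr7 was at 0.41 against 0 h (adjusted p = 0.053), and with the GC trend removed a smaller value passed (0.22, adjusted p = 0.02). At 18 h, Tlr7 was still above its level at 0 h in BMDM-WT (0.41, SE 0.15, adjusted p = 0.018), as was Tlr8 (0.35, SE 0.15, adjusted p = 0.044). Neither value passed in every fit without 1 library. That of Tlr7 was 0.20 without replicate 3 of BMDM-WT at 18 h (adjusted p = 0.21), and it also failed without replicate 4 of BMDM-WT at 0 h. That of Tlr8 failed in 4 of 8 such fits (range 0.21 to 0.45). With the GC trend removed and all libraries, the values were 0.32 for Tlr7 (adjusted p = 1.6e-04) and 0.27 for Tlr8 (adjusted p = 5.8e-04).

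With TMM and all libraries, no genotype difference of Tlr7 or Tlr8 passed the test. At 5 h the BMDM-Nur77-KO libraries of Tlr7 were 956, 838, 746 and 668 CPM (log2 fold change 0.22, SE 0.15, adjusted p = 0.27) and those of Tlr8 801, 605, 524 and 498 CPM (0.25, SE 0.15, adjusted p = 0.23). Without replicate 1 these differences were 0.13 and 0.09. At 18 h the difference of Tlr8 was -0.17 (SE 0.15, adjusted p = 0.48), from 355 ± 72.6 CPM (n = 4, SD) in BMDM-WT and 317 ± 82.6 CPM (n = 4, SD) in BMDM-Nur77-KO. With the GC trend removed it passed (-0.34, SE 0.07, adjusted p = 1.5e-04). For Tlr7 it was 0.26 at 18 h (SE 0.15, adjusted p = 0.24), and it passed without replicate 3 of BMDM-WT (0.47, adjusted p = 0.013). The 2 genes tracked each other closely among replicates, and the library with the highest Tlr7 was also the one with the highest Tlr8 in 7 of the 8 groups. This was not particular to the pair. The library with the highest Tlr4 was also that with the highest Tlr7 in 7 groups and with the highest Tlr8 in 8.

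Tlr9, the receptor for unmethylated CpG DNA, was low until 5 h and high at 18 h. In BMDM-WT it was 25.1, 27.0, 35.0 and 32.4 CPM at 0 h, 30.2, 33.0, 41.8 and 30.5 CPM at 5 h and 257, 299.7, 257 and 253 CPM at 18 h. The rise at 18 h was 8.93-fold (log2 fold change 3.16, SE 0.14, adjusted p = 1.9e-18), and no change at 1 or 5 h passed with TMM. The change at 5 h was 0.18 (SE 0.14, adjusted p = 0.24), and with the GC trend removed it passed (0.46, SE 0.11, adjusted p = 4.1e-04). In BMDM-Nur77-KO it was 19.3, 23.3, 17.9 and 25.2 CPM at 0 h, 11.1, 20.4, 19.3 and 18.4 CPM at 5 h and 315, 365, 329.5 and 307 CPM at 18 h. At 5 h every BMDM-Nur77-KO library was below every BMDM-WT library, and at 18 h every one was above. The rise at 18 h was 15.3-fold (log2 fold change 3.94, SE 0.15, adjusted p = 1.6e-20). The response at 18 h differed between the genotypes (log2 fold change 0.78, SE 0.19, adjusted p = 0.0061 for the interaction), which held in 16 of 16 fits without 1 library.

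The genotype difference of Tlr9 at 5 h was the largest of all members (log2 fold change -0.96, SE 0.15, adjusted p = 2.2e-05). Without replicate 1, which had the lowest value (11.1 CPM), it was -0.80 (SE 0.13, adjusted p = 6.1e-05). At 0 h it passed too (log2 fold change -0.48, SE 0.14, adjusted p = 0.023), but not without replicate 1 or 3 of BMDM-Nur77-KO or replicate 3 or 4 of BMDM-WT (adjusted p up to 0.1), nor with the GC trend removed (-0.31, adjusted p = 0.059). At 1 h it was -0.44 (SE 0.14, adjusted p = 0.065), with all 4 BMDM-Nur77-KO libraries below those of BMDM-WT, and -0.50 on the GC-corrected scale (adjusted p = 0.0031). At 18 h it was 0.30 (SE 0.13, adjusted p = 0.094), and 0.42 on the GC-corrected scale (adjusted p = 0.0013). Plasmacytoid dendritic cells and B cells express Tlr9 and Tlr7. The 5 markers of plasmacytoid dendritic cells (Siglech, Ccr9, Klk1, Cox6a2 and Ly6d) summed to 0.4541 to 0.9 CPM in BMDM-WT at 0 h, 2.622 to 4.159 CPM in BMDM-WT at 18 h and 3.197 to 3.91 CPM in BMDM-Nur77-KO at 18 h, with Siglech at most 0.4184 CPM and Klk1 at 0 in 30 libraries. The 5 B cell markers summed to 1.523 to 4.725 CPM over all libraries.

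Tlr13, the receptor for bacterial ribosomal RNA, was the 1 member that fell at 5 h with TMM scaling and all libraries, and it did so in both genotypes. In BMDM-WT it was 475, 451, 457 and 462 CPM at 0 h, 126, 119, 126 and 118 CPM at 5 h and 399.9, 433, 505 and 381 CPM at 18 h. In BMDM-Nur77-KO it was 585, 498, 545 and 477 CPM at 0 h, 129, 110.1, 126 and 112 CPM at 5 h and 279, 282, 262 and 291 CPM at 18 h. At 5 h the genotypes overlapped, far below the levels at 0 h, whereas at 18 h all BMDM-Nur77-KO libraries lay below all BMDM-WT libraries. The decrease at 5 h was -1.92 in BMDM-WT (SE 0.08, adjusted p = 9.8e-20) and -2.14 in BMDM-Nur77-KO (SE 0.08, adjusted p = 6.9e-21; -2.18 without replicate 1). By 18 h BMDM-WT was near its level at 0 h (-0.10, adjusted p = 0.24), and BMDM-Nur77-KO was still lower (-0.92, SE 0.08, adjusted p = 3.2e-12).

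The genotype difference of Tlr13 at 18 h had the smallest adjusted p of all members at any time (log2 fold change -0.63, SE 0.07, adjusted p = 1.5e-07), and without 1 library it stayed between -0.68 and -0.54. At 0 h the value was 0.19 (SE 0.07, adjusted p = 0.092), and 0.24 without replicate 4 of BMDM-Nur77-KO (adjusted p = 0.043). At 1 and 5 h it was -0.01 and -0.03, and -0.07 at 5 h without replicate 1. With the GC trend removed, the value at 5 h was -0.20 (SE 0.08), just past the threshold after rounding (adjusted p = 0.05). The interaction at 18 h was log2 fold change -0.82, SE 0.11, adjusted p = 2.8e-06, and it too held in 16 of 16 fits without 1 library. Over the members, the response to LPS differed between the genotypes for 0 genes at 1 h (all genes, 0.0447% with a higher and 0.0179% with a lower value in BMDM-Nur77-KO), 0 at 5 h (1.81% and 1.33%) and 3 at 18 h, namely Tlr2 and Tlr9 with a higher value in BMDM-Nur77-KO and Tlr13 with a lower one (5.72% and 3.73%). At 1 h, 0 members passed at an unadjusted p under 0.05 and at 5 h 2 did, both lower, and DESeq2 gave 0 at both times. The interaction of Tlr3 passed after removal of the GC trend at 18 h (0.50, adjusted p = 1.8e-04) and, with the opposite sign, at 5 h (-0.34, adjusted p = 0.023).

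Replicates of the members with AT-rich transcripts moved with the GC trend of their library. The transcripts of Tlr4 (39.4% GC), Tlr3 (40%), Tlr8 (40.1%) and Tlr7 (41%) were the richest in A and T, Tlr13, Tlr1, Tlr6 and Tlr2 lay between 43.6% and 49.3%, and Cd14 (52.5%) and Tlr9 (56.2%) were the highest. The library with the lowest slope on GC in its group also had the highest Tlr4 and Tlr8 in 8 of 8 groups and the highest Tlr7 and Tlr3 in 7 of 8, whereas it had the highest Tlr9 or Cd14 in 0. Between these, it had the highest Tlr1 (45.1% GC) in 6 groups, Tlr13 (43.6%) in 4, Tlr6 in 3 and Tlr2 in 1. The SE of the genotype difference dropped with the GC trend removed from 0.20 to 0.08 for Tlr4, from 0.15 to 0.07 for Tlr8 and from 0.16 to 0.06 for Tlr3 at 5 h. That of Tlr6 rose from 0.07 to 0.09 at 5 h, and that of Tlr13 was 0.08 on both scales. This correction also takes out any difference between groups that follows GC content. Which scale is nearer to the amounts in the cells was not tested.

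**Figure D5:**
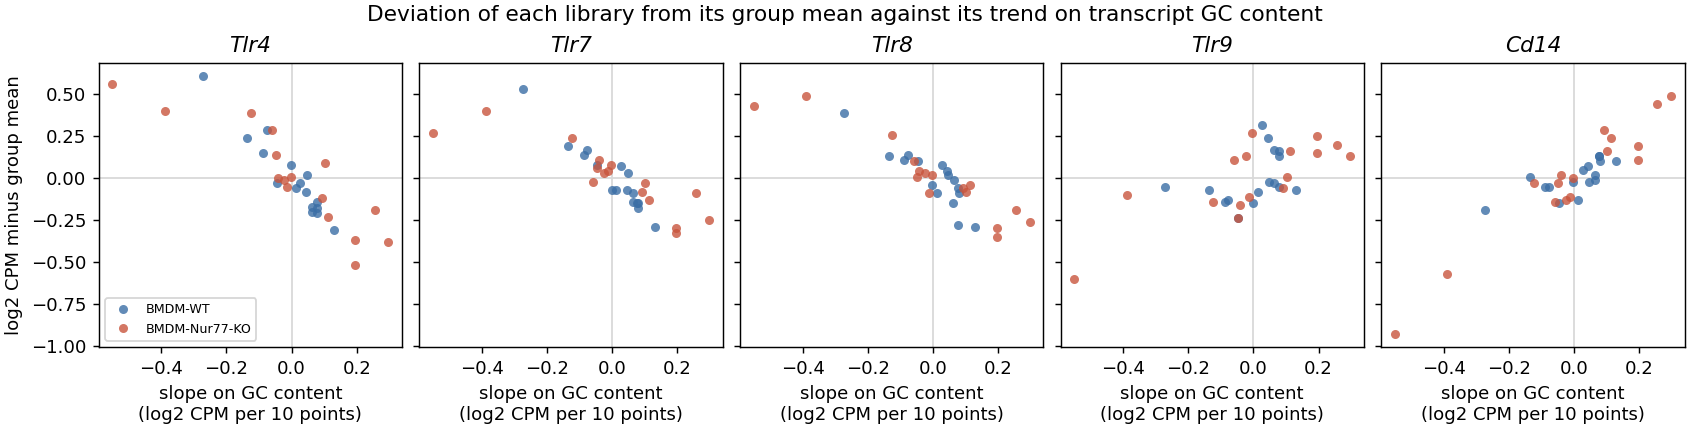
Deviation of each of the 32 libraries from its group mean in log2 CPM for Tlr4, Tlr7, Tlr8, Tlr9 and Cd14 against that library's slope on transcript GC content, with BMDM-WT in blue and BMDM-Nur77-KO in red. Libraries with a low slope, down to -0.55, had high Tlr4, Tlr7 and Tlr8, and the library at that slope had the lowest Cd14 and Tlr9 relative to its group.

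Co-receptors, chaperones and proteins of TLR traffic or processing were counted as a list of 14 genes, of which 13 were tested. In BMDM-WT, 3 rose and 1 fell at 1 h (all genes, 10.4% and 9.81%). At 5 h, 5 rose and 3 fell (30.8% and 39.1%), and at 18 h the counts were 9 and 2 (32.9% and 33.6%). Ly96, which encodes MD-2, the subunit of the TLR4 complex that holds LPS, went from 9.45 ± 1.74 CPM (n = 4, SD) at 0 h to 39.5 ± 3.31 CPM (n = 4, SD) at 5 h (log2 fold change 2.06). Cd180, a TLR homologue that acts with MD-1, rose by 1.2 at 5 h, and Cnpy3, a chaperone of several TLRs, fell by 1.00. At 18 h, Cd36, a scavenger receptor that assists TLR2 and TLR6, fell by 1.78. In BMDM-Nur77-KO the counts were 0 and 0 at 1 h (also at an unadjusted p under 0.05; all genes, 7.12% and 5.08%), 6 and 3 at 5 h (33.1% and 38.2%, and 6 and 3 again without replicate 1), and 9 and 2 at 18 h (34.7% and 34.6%).

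Between the genotypes, 1 gene of that list was higher and 3 were lower in BMDM-Nur77-KO at 0 h (all genes, 5.88% and 6.65%). Cd36 was 2997 ± 211 CPM (n = 4, SD) in BMDM-WT and 4657 ± 660.3 CPM (n = 4, SD) in BMDM-Nur77-KO (log2 fold change 0.64, SE 0.13, adjusted p = 9.3e-04), a difference of 0.30 with the GC trend removed (adjusted p = 0.021). Cnpy3 was lower (-0.41, SE 0.10, adjusted p = 0.0042), though not on the GC-corrected scale (-0.21, adjusted p = 0.062), as was Ly86, which encodes MD-1 (-0.28, SE 0.08, adjusted p = 0.024). At 1 h, 0 genes of the list passed (2 lower at an unadjusted p under 0.05), where 3.44% of all genes were higher and 3.03% lower. At 5 h 2 were higher (all genes, 13.2%), Ctsl (0.41, adjusted p = 0.0011), a protease that cleaves endosomal TLRs, and Cd36 (0.35, adjusted p = 0.043). Without replicate 1 of BMDM-Nur77-KO, Ctsl was at 0.32 (adjusted p = 0.0069) and Cd36 no longer passed (0.23, adjusted p = 0.23), nor did it with the GC trend removed (-0.00, adjusted p = 1). At 18 h, 1 was higher (all genes, 12.3%), Ly96 (0.55, SE 0.19, adjusted p = 0.033), from 24.9 ± 4.77 CPM (n = 4, SD) in BMDM-WT and 36.3 ± 9.40 CPM (n = 4, SD) in BMDM-Nur77-KO.

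Adaptors and kinases downstream of the receptors formed a list of 12 genes, of which 11 were tested. In BMDM-WT, 3 rose and 2 fell at 1 h (all genes, 10.4% and 9.81%), 6 rose and 4 fell at 5 h (30.8% and 39.1%), and 9 rose and 2 fell at 18 h (32.9% and 33.6%). Myd88, the adaptor of all members but Tlr3 and Cd14, rose by 2.18 on the log2 scale at 5 h, followed by the kinases Irak2 (1.88) and Irak3 (1.52), the latter an inhibitor of the pathway. In BMDM-Nur77-KO the counts were 3 and 1 (7.12% and 5.08%), 5 and 4 (33.1% and 38.2%; 5 and 3 without replicate 1), and 8 and 2 (34.7% and 34.6%).

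Irak4, the kinase that starts the MyD88-dependent signal, was lower at all 4 times in BMDM-Nur77-KO. It was 39.9 ± 2.15 CPM (n = 4, SD) in BMDM-WT and 26.7 ± 1.44 CPM (n = 4, SD) in BMDM-Nur77-KO at 0 h, and 48.7 ± 1.55 CPM (n = 4, SD) and 28.4 ± 1.75 CPM (n = 4, SD) at 18 h. The log2 fold changes were -0.58, -0.56, -0.34 and -0.78 at 0, 1, 5 and 18 h (adjusted p = 9.9e-06, 2.6e-05, 0.0071 and 1.8e-08). At 5 h it was -0.42 without replicate 1 (adjusted p = 0.0018). Of the list, 0 genes were higher and 2 lower at 0 h (1 higher at an unadjusted p under 0.05; all genes, 5.88% and 6.65%), 0 and 1 at 1 h (0 higher unadjusted; 3.44% and 3.03%), 1 and 2 at 5 h with and without replicate 1 (13.2% and 10.6%), and 5 and 2 at 18 h (12.3% and 9.44%). Myd88 was lower at 5 h (-0.57, SE 0.12, adjusted p = 0.0012; -0.41 without replicate 1, adjusted p = 0.0024), from 358 ± 11.5 CPM (n = 4, SD) in BMDM-WT and 241 ± 63.5 CPM (n = 4, SD) in BMDM-Nur77-KO.

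Among the 5 genes of the list that were higher at 18 h were Ticam1 and Ticam2. Ticam1, which encodes TRIF, the adaptor of TLR3 and of endosomal TLR4, was 63.8 ± 4.18 CPM (n = 4, SD) in BMDM-WT and 93.0 ± 3.50 CPM (n = 4, SD) in BMDM-Nur77-KO (log2 fold change 0.54, adjusted p = 1.8e-05). Ticam2, which encodes TRAM, the bridge from TLR4 to TRIF, was 106 ± 5.50 CPM (n = 4, SD) and 158 ± 11.2 CPM (n = 4, SD) (0.58, adjusted p = 2.1e-07). Their responses at 18 h relative to 0 h also differed between the genotypes, by 0.71 for Ticam1 (SE 0.13, adjusted p = 2.4e-04) and 0.40 for Ticam2 (SE 0.10, adjusted p = 0.0073). They were the 2 genes of the list that did so (all genes, 5.72% with a higher and 3.73% with a lower value), and 3 did with the GC trend removed.

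The genes with the pattern most like each member over the 32 libraries were named by Pearson's r of log2 CPM, as a description of libraries that share treatment, time and GC trend. Tlr3 was closest to Usp25 (0.999), Snx10 (0.996) and Prpf38a (0.996), and Tlr1 to Lgals8 (0.992), Epsti1 (0.992) and Ctsc (0.989). Tlr2 was closest to Marcksl1 (0.986), Ccl4 (0.984) and Nfil3 (0.973), and Cd14 to Oaf (0.969), Map2k3 (0.943) and Srsf7 (0.941). Tlr9 was closest to Nr1h3 (0.984), Acp2 (0.982) and Gstm1 (0.982), Tlr6 to Peli1 (0.988), Il15 (0.987) and Jak2 (0.985), and Tlr13 to Fam168a (0.988), Stard9 (0.988) and Zmat3 (0.986). Tlr7 was closest to Mob1b (0.989), Rab8b (0.987) and Dr1 (0.986), Tlr8 to Adam9 (0.97), Twf1 (0.965) and Sugt1 (0.955), and Tlr4 to Ccni (0.913), Uprt (0.913) and Srsf1 (0.908). Spearman's rho named 12 of these 30 genes. It named none of those given for Tlr3, Tlr9 and Tlr13, and all of those given for Tlr4. Among the members, r was 0.96 for Tlr3 and Tlr6, 0.95 for Tlr7 and Tlr8, 0.85 for Tlr2 and Cd14, and -0.91 for Tlr7 and Tlr13.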

How the data were processed

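RNA-seq of 32 BMDM libraries was analysed from 1 table of expected counts that the authors deposited without normalization. Per the labels and the methods, the authors used CASAVA 1.8.2 and HISAT2 2.1.0, aligned to mm10, used SAMtools to drop alignments of low mapping quality, and let HOMER count tags per RefSeq transcript. The library kit was strand-specific, and the use of strand in counting is not given in the sources used here. Of 42361 transcripts, 93 had no gene name (0.233% to 1.37% of the tags of a library) and were left out. Each gene was represented by its transcript of highest mean count, and expected counts, 28.6% of which were not whole, were rounded. All pairs of replicates differed by more than counting noise (chi-square per degree of freedom 1.92 to 114.09 over 48 pairs).

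After TMM scaling, 1 model of 8 group means was fitted and tested by quasi-likelihood in edgeR 4.0.16 (limma 3.58.1, R 4.3.3). P-values were adjusted with the Benjamini-Hochberg method over the 11186 genes whose mean RPKM exceeded 1 in any group, and calls were made at an adjusted p under 0.05. RPKM used the length of the kept transcript where known (91.4% of genes) and another of the gene otherwise. Log2 CPM used a prior count of 2. The scripts were tested on simulated data. The members and lists were chosen with earlier results of these data known. The genes named were the members, Tlr5, Tlr11 and Tlr12, Nr4a1, at most 3 called genes of each of 2 pathway lists per comparison, the 3 genes most like each member, and cell type markers. Irak4 and Cd36 were named wherever they were among those 3. Alternatives were DESeq2 1.42.0, its size factors, other filters, a replicate block, a log2 fold change over 1, the libraries compared alone, every transcript as deposited, leaving out each library and, chosen after seeing the data, removal of each library's lowess trend on GC content of transcripts (span 0.3), known for 99.9% of the genes. Both pathway lists were also tested with that removal and, leaving out the 5 h library that stood apart, again chosen after seeing the data.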

Additional observations from a re-analysis of the deposited data

Results flagged for a closer look

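Of 80 groups of 4 libraries (10 genes in 8 groups), 4 had a library far from the other 3, and chance flags about 1 in 20 groups. Tlr4 was 201.2 CPM in replicate 3 of BMDM-WT at 18 h, the highest of its group. Tlr3 was 18.95 CPM in replicate 2 of BMDM-WT at 0 h and Tlr9 was 299.7 CPM in replicate 2 of BMDM-WT at 18 h, both the highest of their groups. Tlr6 was 65.91 CPM in replicate 2 of BMDM-WT at 5 h, the lowest of its group.

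The response to LPS at 18 h relative to 0 h differed between the genotypes for 3 members, by a test of the difference itself (quasi-likelihood test of edgeR, Benjamini-Hochberg adjustment). On the log2 scale the interaction was 0.69 for Tlr2 (adjusted p = 0.007), 0.78 for Tlr9 (adjusted p = 0.0061) and -0.82 for Tlr13 (adjusted p = 2.8e-06).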

How the results depend on the processing

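Of the 68 member and comparison pairs called, 57 kept their call under DESeq2, other filters and scalings, the replicate block, the libraries compared alone and leaving out each library. Another 87 values that were never called changed sign. The called value with the opposite sign was Tlr3 at 5 h between genotypes (-0.27 with the GC trend removed). With DESeq2's Wald test and with its size factors, BMDM-Nur77-KO had 1 higher member (Tlr13) at 0 h and 1 (Tlr6) at 5 h, and DESeq2's test had 2 lower at 1 h. In the libraries compared alone, 1 was higher and 2 lower at 0 h, 4 lower at 1 h and 1 lower at 5 h, and 2 members fell at 5 h of LPS in BMDM-WT. With the GC trend removed, 0, 2, 5 and 2 were lower in BMDM-Nur77-KO at the 4 times. The members that fell after LPS were then 2 at 5 h and 2 at 18 h in BMDM-WT and 1 at 1 h and 2 at 5 h in BMDM-Nur77-KO, and 1 interaction at 5 h was below 0. With a log2 fold change over 1 required, 0 members were called between genotypes at any time and 0 interactions at 18 h, while 2 rose at 1 h and 4 rose and 0 fell at 18 h in BMDM-WT, 0 fell at 18 h in BMDM-Nur77-KO, and 3 fell from 5 to 18 h in each genotype. The causes were not tested. Spearman's rho named 12 of the 30 most similar genes.

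Without single libraries, the members higher in BMDM-Nur77-KO were 0 to 1 at 0 h, 0 to 1 at 5 h and 1 to 4 at 18 h, and those lower 0 to 2 at 0 h. Without replicate 3 of BMDM-WT at 18 h the count higher at 18 h was 4, with Tlr7 added, and without replicate 4 of that group it was 1. In BMDM-WT 3 to 5 members rose at 1 h, 5 to 7 rose at 18 h and 1 to 3 fell at 18 h. In BMDM-Nur77-KO 2 to 3 rose at 1 h, 1 to 2 fell at 5 h, 5 to 6 rose and 1 to 2 fell at 18 h, and 5 to 6 fell from 5 to 18 h.

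A replicate block moved 1 count, from 7 to 6 members that rose at 18 h in BMDM-WT (Tlr8, 0.35, adjusted p = 0.055), and changed no other call of a member. Replicate numbers did not pair the libraries. The correlation of deviations of libraries with the same number in the 12 pairs of groups compared ranged from -0.70 to 0.47, with 11 of 48 over 0.1. All values rest on 4 libraries a group, and a genotype difference of Tlr4, Tlr7 or Tlr8 of the size of their SE was not detectable.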

Other observations

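The remaining mouse Toll-like receptor genes were expressed too little to be among the genes tested, and their values come from a fit without a filter on low counts (18060 genes, quasi-likelihood test of edgeR, Benjamini-Hochberg adjustment). Tlr5, which encodes the receptor for flagellin, was at 1.21, 1.72, 1.5 and 0.867 CPM in the 4 BMDM-WT libraries at 0 h (16, 33, 20 and 12 counts) and at 0.362, 0.375, 0.381 and 0.157 CPM in BMDM-Nur77-KO (4, 6, 5 and 2 counts). At 1 h it was 2.13, 0.842, 1.40 and 1.26 CPM in BMDM-WT and 0.516, 0.373, 0.159 and 0.150 CPM in BMDM-Nur77-KO. All BMDM-Nur77-KO libraries lay below all BMDM-WT libraries at both times, with log2 fold changes of -2.03 (SE 0.41, adjusted p = 0.0012) at 0 h and -2.22 (SE 0.42, adjusted p = 7.5e-04) at 1 h. At 5 and 18 h no library held more than 2 counts, so a genotype difference was not detectable at this depth.

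Tlr11 and Tlr12, which encode receptors for profilin of protozoa, were highest at 18 h. Tlr11 was 0.276 CPM in BMDM-WT at 0 h and 1.04 ± 0.328 CPM (n = 4, SD) at 18 h, a log2 fold change of 1.90 (adjusted p = 2.7e-04), and 1.39 ± 0.302 CPM (n = 4, SD) at 18 h in BMDM-Nur77-KO (2.37 against 0 h, adjusted p = 6.4e-06). Tlr12 was 0.935 ± 0.28 CPM (n = 4, SD) in BMDM-WT and 0.922 ± 0.438 CPM (n = 4, SD) in BMDM-Nur77-KO at 18 h. No genotype difference of either gene passed the test at any time.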
